A study of Mus musculus with 48 samples.

Results

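The data described here concern 592 intergenic noncoding RNA regions, read by 979 microarray probes, that were detected in the medial prefrontal cortex (mPFC) of every mouse and in the blood of at most 12 of 24. The regions were chosen by measured detection values, and each probe that met the rule is called a member below. A probe was taken when the array names it by an intergenic region of the mm9 mouse genome (chromosome, start, end and strand), when its spot was well above background on all 24 mPFC arrays, and when it was well above background on at most 12 of the 24 blood arrays. The array holds 16194 such region probes in 4610 regions, counted by strand. The mice were female C57BL/6J animals, 17 weeks old, in 4 groups of 6: control mice (sham surgery, no stress), stress mice (sham surgery with chronic ultra-mild stress), OVX mice (both ovaries removed, no stress) and OVX+stress mice (both ovaries removed, with the same stress). One mPFC array and 1 whole-blood array were read per mouse, and the groups ask whether loss of the ovaries, stress or both change transcripts in the cortex. All 24 mice had been operated on, control mice included, and the study used the OVX+stress mice to model depression.

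Long intergenic noncoding RNAs are transcribed between protein-coding genes, are spliced and polyadenylated in many cases, and code for no known protein. Many are found in 1 tissue only, and the brain is known for a large share of them. In the developing cortex several lie beside genes for transcription factors, often on the opposite strand, and others are long tails of a coding transcript that the annotation of the time ended too early.

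The sequences that carry the results are the array's 60-base probes, printed 5′ to 3′ as the array holds them, on mm9. The first 4 are from the regions beside Pou3f3 (chr1:42705179-42705238, reverse strand), Homer1 (chr13:94182803-94182862, forward), Slc1a3 (chr15:8479031-8479090, reverse) and Cntn1 (chr15:92197253-92197312, forward), shown because each is the brightest member next to a gene of neurons or astrocytes. The fifth and sixth are from the regions beside Ttll7 (chr3:146646465-146646524, forward) and Srsf1 (chr11:87845203-87845262, forward), which with the Pou3f3 probe stood farthest above blood. The next 3 are from the regions beside Chst10 (chr1:38892128-38892187, reverse), Ywhaq (chr12:21383015-21383074, reverse) and Xbp1 (chr11:5394519-5394578, reverse), which had the largest negative OVX effects. Capitals mark AATAAA, the canonical polyadenylation signal, and GTCTTCC, 7 letters that recur below.
Pou3f3 neighbour: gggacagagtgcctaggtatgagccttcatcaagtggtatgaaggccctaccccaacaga
Homer1 neighbour: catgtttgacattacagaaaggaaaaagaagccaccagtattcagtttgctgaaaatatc
Slc1a3 neighbour: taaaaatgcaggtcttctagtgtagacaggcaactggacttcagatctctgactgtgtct
Cntn1 neighbour: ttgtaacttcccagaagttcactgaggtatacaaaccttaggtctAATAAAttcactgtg
Ttll7 neighbour: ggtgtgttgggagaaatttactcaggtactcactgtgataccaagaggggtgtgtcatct
Srsf1 neighbour: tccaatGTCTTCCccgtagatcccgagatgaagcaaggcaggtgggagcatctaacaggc
Chst10 neighbour: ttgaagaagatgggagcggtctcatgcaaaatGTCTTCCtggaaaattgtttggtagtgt
Ywhaq neighbour: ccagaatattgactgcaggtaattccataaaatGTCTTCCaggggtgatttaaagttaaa
Xbp1 neighbour: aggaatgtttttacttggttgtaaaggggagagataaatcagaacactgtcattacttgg

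The rule reads detection in both tissues, so the difference between cortex and blood is given as a description, with no test. "Only in cortex" held literally for 301 members (30.7%), which were well above background on no blood array. Another 471 were well above background on 1 to 6 blood arrays and 207 on 7 to 12. The processed signal is the scanner's background-subtracted intensity in arbitrary units, averaged here over the 24 arrays of a tissue. In mPFC its mean ranged from 25.8 to 29623 over the members, with a median of 86.4, and in blood it ranged from 2.18 to 35.5, with a median of 6.03. Most members were thus dim in cortex: 429 had a mean above 100, 48 above 1000 and 7 above 10000. The 3010 region probes that were well above background on all 48 arrays had a median mean signal of 154 in mPFC and 150 in blood. At the edge of the rule, the 32 members on exactly 12 blood arrays had mean blood signals of 10.5 to 16.1, and the 31 region probes on exactly 13, which the rule leaves out, had 10.5 to 20.1.

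**Figure D1:**
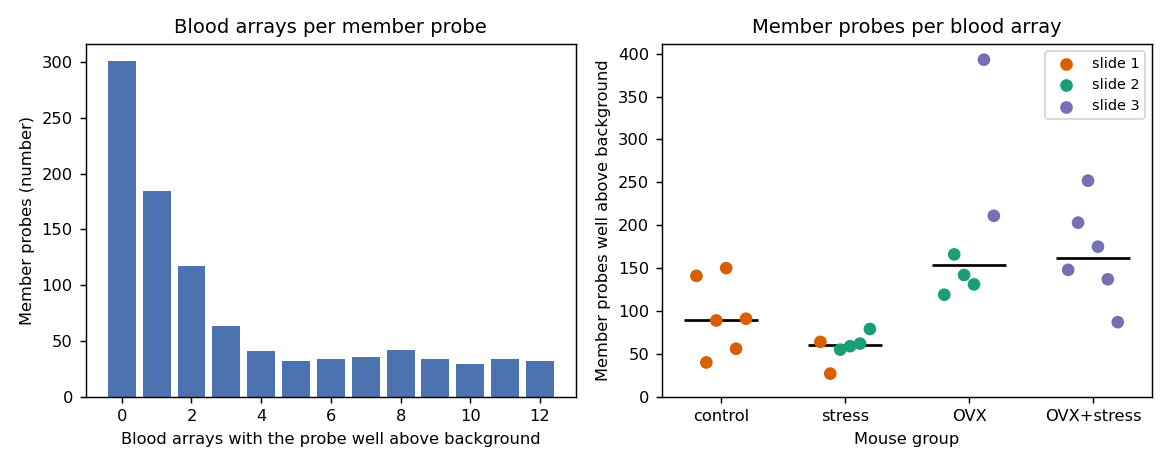
Left, number of member probes (vertical axis) by the number of blood arrays on which they were well above background; the bar at 0 holds 301 of 979. Right, member probes well above background on each blood array, by mouse group, with the group median as a line and the array slide as colour; the highest point is an OVX mouse with 393.

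The blood arrays did not read the members evenly. Between 40 and 150 members were well above background on the blood arrays of control mice, 27 to 79 for stress, 119 to 393 for OVX and 87 to 252 for OVX+stress. The 75th percentile of the processed signal, a measure of how bright an array is, was 81.3 to 132 in control blood, 54.9 to 105 in stress blood, 110 to 192 in OVX blood and 103 to 144 in OVX+stress blood, against 572 to 689 in mPFC. Over all probes, the median array had 29714 well above background in control, 29119 in stress, 30878 in OVX and 31363.5 in OVX+stress blood. The counts of members use the same blood detection values that chose the members. Control blood arrays were all on slide 1 and OVX+stress ones all on slide 3. Stress ones lay on slides 1 and 2, and OVX ones on slides 2 and 3. By group median, the 75th percentile was 110 in control, 90.1 in stress, 139 in OVX and 125 in OVX+stress blood. The median count of members was 90, 60.5, 154 and 161.5 in the same order, so OVX and OVX+stress changed places. The parts of array brightness and of slide in these counts were not tested.

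For the 301 members never read in blood, a lower bound of the ratio can be given. The mPFC mean was set against the blood mean in which each array's value was raised to its lowest signal well above background, after each array's 75th percentile had been subtracted in log2. The bound had a median of 4.001-fold, was 10-fold or more for 68 members and 100-fold or more for 4, and fell under 1 for 2, for which no ratio is given. Those 4 lay beside Pou3f3 (at least 422-fold), Srsf1, a splicing factor (at least 391-fold), Ttll7, a tubulin-modifying ligase of neurons (at least 273-fold), and 1500009L16Rik (at least 101-fold). The processed signal of the Pou3f3 neighbour was 8041 to 11483 over the 24 mPFC arrays, with a median of 9148, and its median in blood was 2.62. The Srsf1 neighbour had 8904 to 17831 in mPFC and a blood median of 4.24. For both, no mPFC array overlapped a blood array. Both were chosen by these same values, through the rule and the bound, so this is no separate result.

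Relative to coding genes, the cortex-detected regions lay closer than the regions of the array in general. The distance was taken on mm9 from a region to the nearest probe of a coding transcript, so it is the distance to the probed stretch, mostly the 3′ end, and gene bodies and exons were not assigned. The median distance was 17.6 kb for the 592 regions, 21.6 kb for the 1895 regions read in both tissues and 25.02 kb for all 4610. Within 10 kb of a coding gene probe lay 240 regions (40.5%), against 33.2% of the regions read in both tissues and 30.5% of all. The shares differed most on the gene's own strand downstream. There, 18.1% lay within 10 kb of the nearest gene, against 12.7% and 11.2%, while 48 (8.11%) lay downstream on the opposite strand, against 8.50% and 8.63%, and 25 (4.22%) lay upstream, against 6.07% and 5.53%. A coding gene probe lay inside 60 regions (10.1%), against 5.91% and 5.10%. These shares are descriptions of array contents and were not tested, and 149 of the 592 regions overlap another on the same strand, so that they form 508 separate intervals.

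The nearest gene was itself read in mPFC for most of them. Its probe was well above background on all mPFC arrays for 514 of the 592 regions (86.8%), against 81.3% of the regions read in both tissues and 79.5% of all regions. It met the same rule, cortex on all arrays and blood on at most 12, for 117 (19.8%), against 14.5% and 16.0%. Over the array's 24164 other probes read on all mPFC arrays, 5145 (21.3%) met the rule, and over the region probes read there 979 of 4783 (20.5%) did, so meeting the rule was about as common among intergenic region probes as among other probes. The members' probes were poorer in G and C, with a median of 41.7% against 45% for the region probes read in both tissues. AATAAA (searched on the probe's own strand) stood in 49 members (5.01%), in 3.85% of the probes read in both tissues and in 3.92% of all region probes. Members sit on both strands: 36 of 556 distinct intervals had members on the forward and the reverse strand.

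**Figure D2:**
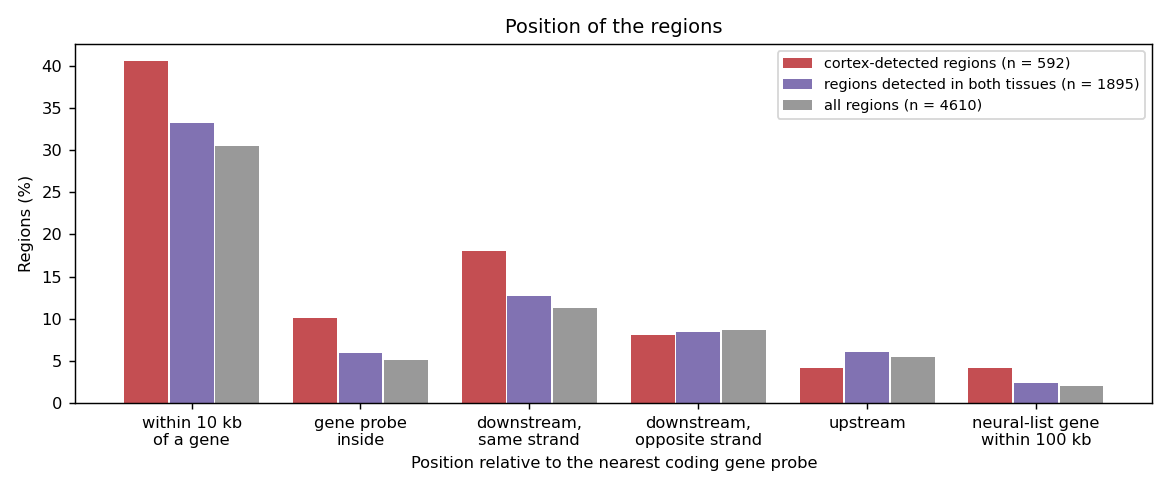
Share of regions (%) in each position class relative to the nearest coding gene probe, for the 592 cortex-detected regions, the 1895 regions detected in both tissues and all 4610 regions. The classes upstream and downstream are within 10 kb; the cortex-detected regions stand at 18.1% downstream on the same strand, above the other bars of that class.

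Genes of neural function stood nearest to 25 of the 592 regions within 100 kb (4.22%), against 2.37% of the regions read in both tissues and 2.06% of all regions. There were 7 lists of neural genes, and cortical transcription factors made up most of these neighbours. They were nearest to 16 regions with 33 member probes, of 47 regions of the array near any gene of the list. Vesicle release and cytoskeleton genes had 3 regions, glial genes 2, neuropeptides, growth factors and their receptors 2, neuronal ion channels 1 and synaptic adhesion and axon guidance genes 1. Glutamate and GABA receptors had 0, and no region of the array lay within 100 kb of a nearest gene on that list. In all, 48 members lay next to 18 such genes. Within 10 kb the count was 12 regions and within 1000 kb it was 32.

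The Pou3f3 locus held the most members. Pou3f3 (Brn1) is a POU-domain factor of upper-layer cortical neurons, and 7 of the 28 region probes near it were members, in 5 regions 2.77 to 6.30 kb from its probe. Of the other 21, 7 were read on more than 12 blood arrays, 10 on some mPFC arrays only and 4 on none. The brightest, on the reverse strand of chr1:42689799-42749799, upstream of Pou3f3 and opposite to it, is the one printed above. The array also names transcripts inside that region, on the same strand. The probe of 2610017I09Rik had a median processed signal of 18522 in mPFC and was read on 1 blood array, and the 4 probes called BRN1-A had medians of 4747 to 17293 and were read on 0, 0, 1 and 23 blood arrays. Downstream of Pou3f3 on its own strand, 3 members of chr1:42758928-42771337 had mPFC medians of 49.2, 257 and 472, and the probe of 2900092D14Rik in the same interval had 285 and was read on 0 blood arrays. The Pou3f3 probe itself was read on 2 blood arrays. Of these 6 probes of named transcripts, 5 were read on every mPFC array and on at most 12 blood arrays.

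Upstream of Pou3f1, another POU factor, and opposite to it, 4 members of chr4:124127144-124334840 had medians of 358, 482, 931 and 1318. Near Mef2c, an activity-regulated factor, 6 members in 2 regions 92.7 kb away had medians of 64.03 to 163. Another 5 near Sox4 had medians of 82.7 to 464 and 3 near Nr2f1, which patterns cortical areas, had 120 to 201. Nr2f2, Tshz3, Eomes and Emx2 were each next to 1 or 2 members. The Emx2 neighbour (median 39.9) lay opposite to the gene, and a probe of the known antisense transcript Emx2os in its interval had a median of 59.3 and was read on 4 blood arrays.

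Downstream of Homer1, a scaffold of the postsynaptic density, 3 members lay in the 2.18 kb interval chr13:94180737-94182912 on the gene's strand, 5.86 kb from its probe. Their mPFC signal was 1914 to 3175, 1087 to 1800 and 1194 to 1850 over 24 arrays, and they were read on 0, 2 and 2 blood arrays, while the Homer1 probe itself was read on 21 blood arrays. Downstream of Cntn1, an axonal adhesion molecule, the member printed above ranged from 209 to 791 and a dimmer one from 23.2 to 132. Near Slc1a3, the glutamate transporter of astrocytes, 3 members on its strand but 89.3 kb away had medians of 213, 551 and 725. Upstream of the serotonin receptor gene Htr1b and opposite to it, 2 members had medians of 393 and 406. The Htr1b probe was well above background on 19 of 24 mPFC arrays. The Scn3a neighbour, next to a voltage-gated sodium channel gene, had a signal of 23.7 to 44.8. The bound over blood was a median of 6.00-fold over the 21 of these 48 members that no blood array read.

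**Figure D3:**
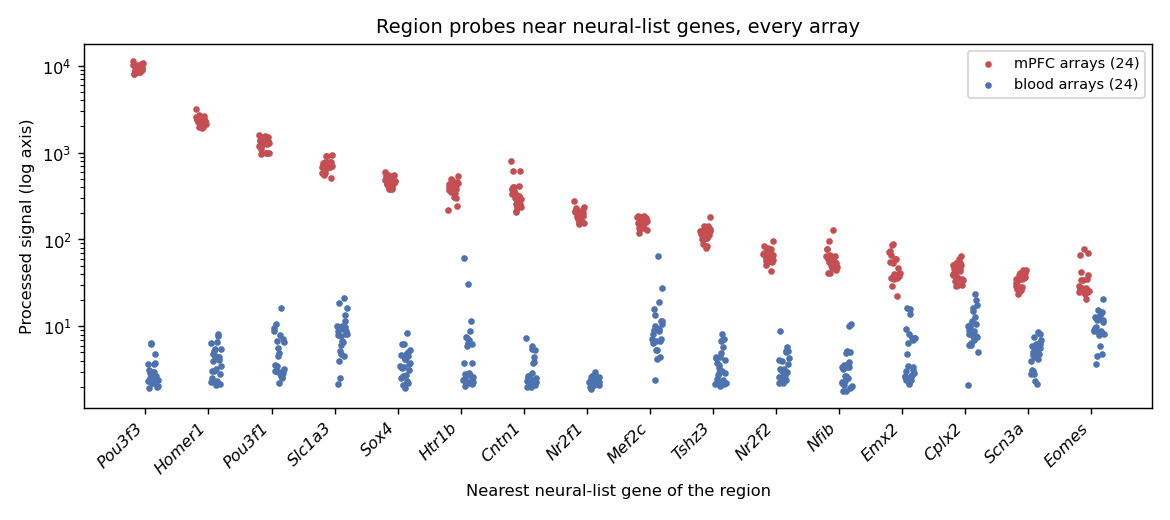
Processed signal (log axis) of the brightest member next to each of 16 of the 18 neural-list genes, on every mPFC array (red) and every blood array (blue). The Pou3f3 neighbour lies between 8041 and 11483 in mPFC; probes differ in hybridization, so levels are to be read within a column only.

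Named transcripts of the array lie inside many of the regions, and the rule did not use their probes. They were read on the same arrays that chose the regions and may be of the same transcripts, so they are no independent reading. In all, 8 member probes have the same sequence as some probe that is not a member. On the region's own strand, 211 such probes lay inside 170 of the 592 regions. Of these, 151 (71.6%) were well above background on all mPFC arrays, against 61.2% of the array's other probes. Among them, 58 of the 151 (38.4%) were also read on at most 12 blood arrays and 65 on all 24, against 21.3% within the rule for the array's other probes. No mPFC array read 13 of the 211. The brightest of the 58 after the Pou3f3 transcripts, chosen here after their values were seen, included H2afy3 (median 2703), C130071C03Rik near Mef2c (2487) and Mirg, the host of microRNAs in the imprinted Dlk1-Dio3 cluster (1184). At Ttll7, 5 members of 2 overlapping forward-strand intervals had mPFC medians of 7493, 9358, 15659, 18154 and 21172, and the Ttll7 probe inside the longer one had 969.

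Several probes of a region can be compared with each other in how they moved. Of the 592 regions, 246 had 2 or more member probes (633 probes), 9 had 5 and 2 had 6. The sign of the OVX effect was the same over all member probes in 139 of the 246 (56.5%), that of the stress effect in 144 (58.5%) and that of the interaction in 147 (59.8%). The 2 regions with 6 members lay 1.64 kb downstream of Pura, which encodes a nucleic acid-binding protein of neurons, on the opposite strand, and 228 kb from Spry2, an inhibitor of growth factor signalling. The 6 probes beside Pura had mPFC medians from 51.3 to 28325. In the Spry2 neighbour, chr14:105987405-106063477, the stress effect was negative for all 6 probes (-0.15 to -0.05 on the log2 scale) and passed the test for none. The 9 regions with 5 members lay beside Nectin3, Galntl6, Ndufa9, Glis2, Jmy, Hmbox1, Pdp1, Dgki and Hccs, and the 4 named first, the brightest by mean mPFC level, are those followed here. Over all 11 regions, 2 probes passed the test for OVX (1 beside Hmbox1 and 1 beside Pdp1), 1 for stress (beside Hmbox1) and 0 for the interaction by limma. Over all members, 11.95% passed for OVX, 1.63% for stress and 1.74% for the interaction. The shares over all tested probes were 30.4%, 4.02% and 4.32%.

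The region downstream of Ndufa9, a subunit of respiratory complex I, had the same sign in all its probes for each effect. Its 5 members are on the reverse strand of chr6:126766225-126771309, a region of 5.09 kb, 0.687 kb from the gene. Their probes all lie between positions 126769543 and 126770103, a short part of that region. Their interaction effects ranged from -0.65 to -0.33 and their stress effects from -0.33 to -0.15, with none past the threshold. OVX+stress mouse 6 had the lowest value of all 24 for each of the 5 probes, for example 64.1 against a median of 224 for 1 of them. Without that mouse the interaction effects were -0.45 to -0.20 and the stress effects -0.22 to -0.09. The gene's own probe changed with OVX (0.13, SE 0.04, adjusted p = 0.0084 by limma) and had an interaction of -0.07 (adjusted p = 0.62).

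**Figure D4:**
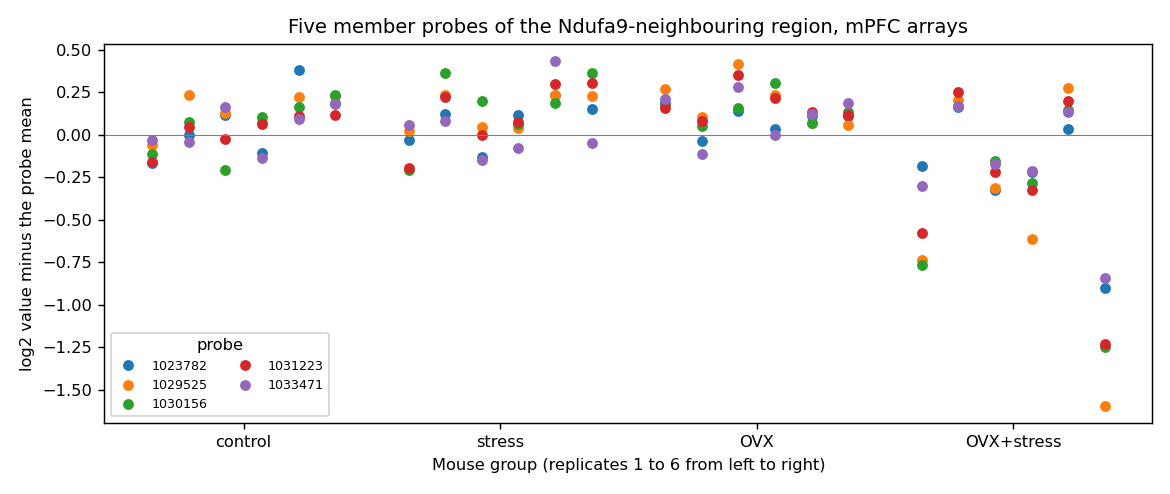
Log2 value of each of the 5 member probes beside Ndufa9 minus that probe's mean over the 24 mPFC arrays, by mouse group and replicate. All 5 points of OVX+stress mouse 6, at the right edge, are the lowest of their probe.

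The 4 groups of mPFC arrays were compared with limma in a factorial model, fitted to the 28947 probes well above background on all mPFC arrays and adjusted over all of them by Benjamini-Hochberg at 0.05. The OVX effect is the mean of both OVX groups minus the mean of both sham groups, the stress effect is defined likewise, and the interaction is the stress effect in OVX mice minus that in sham mice. Values are log2 of the processed signal minus each array's 75th percentile. The arrays of a group were not spread over the slides: slide 1 held the 6 control mice and 2 stress mice, slide 2 held 4 stress and 4 OVX mice, and slide 3 held 2 OVX and all 6 OVX+stress mice. Control and OVX+stress mice shared no slide. With slide as a block, 0 of the 979 members (55 at an unadjusted p under 0.05) and 0 of all 28947 probes passed limma's test for OVX, and so did 0 for stress (81 members unadjusted) and 0 for the interaction (41). Group and slide can therefore be told apart only in part, and the values below are given with the slides.

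For OVX, 117 members (11.95%) passed the test, 66 higher and 51 lower in OVX mice, against 30.4% of all tested probes (18.8% higher and 11.6% lower) and 40.2% of the region probes read in both tissues. The split moved with the scaling. It was 68 higher and 48 lower after quantile normalization, 115 and 42 after normexp background correction, and turned to 40 and 60 when the 75th percentile was taken over tested probes only, and 3 and 213 when arrays were shifted by their spike-in controls, which moved the median of all probes from 0.04 to -0.12. The members' effects had a median size of 0.098 on the log2 scale, against 0.103 over all tested probes, and their standard errors had a median of 0.086 against 0.060. The size of 2 of the 117 effects exceeded 1. In mice of 1 group on different slides, differences of the same kind appeared. Between stress mice of slide 2 and of slide 1, 69 members passed, and 15.7% of all probes. Between OVX mice of slide 3 and of slide 2, 4 members passed, and 0.435% of all probes. Within slide 2, where 4 OVX mice lay beside 4 stress mice, 0 members passed for OVX minus stress (154 at an unadjusted p under 0.05, 0.0173% of all probes called). In the fit over all 24 arrays, 4 of 5 microglial marker genes and 2 of 4 tested lymphocyte markers were called higher in OVX mice. Of the neuronal, oligodendrocyte and striatal markers 1 each was called higher, of the meningeal markers 1 lower, and of the other lists none. The mean log2 level of the microglial markers was 2.60 to 2.78 in control, 2.58 to 2.90 in stress, 2.78 to 2.96 in OVX and 2.72 to 3.07 in OVX+stress mice, and the part of this in the members' values was not tested.

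The 3 members with the largest negative OVX effects differed by slide. In the Chst10 neighbour, chr1:38892041-38893543, the log2 value was -1.83 to -0.40 in control mice, -4.30 to -1.55 in stress mice, -3.97 to -2.87 in OVX and -3.58 to -1.99 in OVX+stress mice. By slide it was -1.83 to -0.40 on slide 1, -4.30 to -2.97 on slide 2 and -3.58 to -1.99 on slide 3, so the 2 stress mice on slide 1 lay with the control mice and the other 4 did not overlap them. The OVX effect was -1.08 (SE 0.28, adjusted p = 0.0060) and the interaction 2.18 (SE 0.57, adjusted p = 0.039), both by limma.
The Ywhaq neighbour, chr12:21380896-21387071, had the same order, from -0.56 to 0.63 on slide 1, from -2.91 to -1.80 on slide 2 and from -2.17 to -0.79 on slide 3. Its OVX effect was -1.05 (SE 0.25, adjusted p = 0.0035 by limma), which turned to 0.016 with slide as a block.
The Xbp1 neighbour, chr11:5387350-5403150, was -1.93 to -1.65 on all 8 arrays of slide 1, control and stress mice alike, and -3.42 to -2.74 on the other 16. Its OVX effect was -0.97 (SE 0.14) with the interaction at 1.08 (SE 0.28, limma adjusted p = 0.038). The probes of Chst10 (0.01), Ywhaq (0.13) and Xbp1 (0.04) had OVX effects of the other sign, of which that of Ywhaq passed limma's test.

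**Figure D5:**
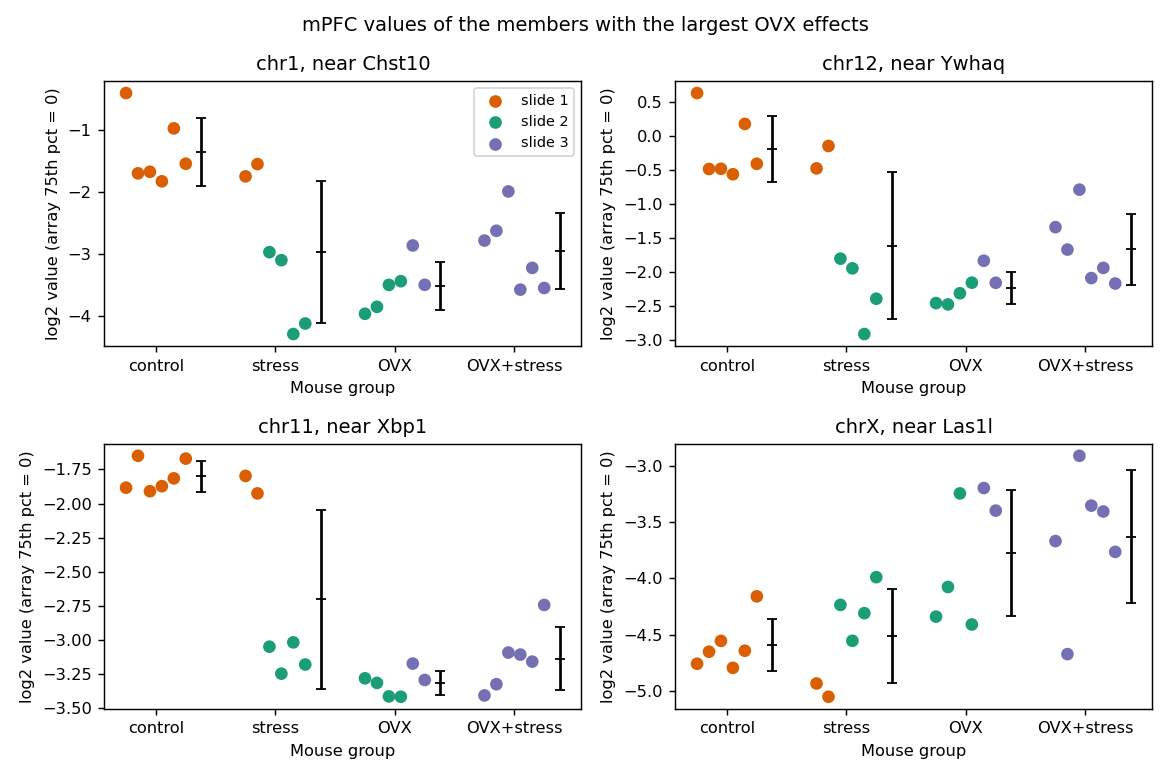
Log2 value (array 75th percentile = 0) of 4 members on each mPFC array, by group, coloured by slide; bars are mean and SD of 6 mice. In the Chst10, Ywhaq and Xbp1 neighbours the 2 stress mice of slide 1 lie with the control mice; the Las1l neighbour rises from slide 1 (mean -4.69) to slide 3 (mean -3.55).

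In 14 members every array of slide 1 lay above all arrays of slides 2 and 3, and in 0 it lay below, against 5.89% and 3.20% of all tested probes. All 14 were called lower for OVX, as were 1666 of the 1704 such probes over the whole test, slide 1 holding sham mice only. Of the 3 members just named, 2 share 7 letters, GTCTTCC, which was noticed after the values were seen. Of the 20 members whose probe holds GTCTTCC (searched on the probe's strand, with no overlap with AATAAA in the probes printed), 6 were called lower for OVX (30.0%) and 3 higher for the interaction (15.0%), against 4.69% and 0.834% of the 959 others. Without the pair that drew attention to them, 4 of 18 (22.2%) were called lower for OVX and 1 (5.56%) higher for the interaction. Over all tested probes, 205 (0.708%) hold these letters. Of them, 22.4% were called lower for OVX and 11.2% higher for the interaction, against 11.5% and 3.20% of the rest. Among the region probes read in both tissues the order was the other way, with 25% against 30.5% for OVX and 9.38% against 11.7% for the interaction. Over all tested probes holding the letters, the interaction exceeded 1 in 32 (15.6%), against 1.10% of the rest. Among the region probes read in both tissues, it did so in 6 (18.75%) of those with the letters, against 3.49% of the rest. Tested probes with the reverse complement, GGAAGAC, showed an interaction over 1 in 1 of 164 (0.610%). Other members with the letters, on the strand opposite to Mirg in chr12:110944403-110988678 and on chrX:47893703-47996700, had OVX effects of -0.61 and -0.57 in the same direction, while the Srsf1 neighbour (-0.03) and the brightest Pura neighbour (0.09) did not pass the test.

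The 3 largest positive OVX effects were smaller in size. The Las1l neighbour, chrX:93154123-93164481, was at -4.79 to -4.16 in control, -5.05 to -3.99 in stress, -4.41 to -3.20 in OVX and -4.67 to -2.91 in OVX+stress mice, with an effect of 0.85 (SE 0.18, limma adjusted p = 0.0014), which turned to -0.11 with slide as a block. The groups overlapped, and its signal was near the lower limit of the array (18.9 to 76.0). The Rack1 neighbour on the reverse strand of chr11:48603904-48611829 had 0.44 (SE 0.09) and the Zfhx3 neighbour 0.37 (SE 0.12). On the other strand of the Rack1 interval, the probe of the same 60 bases in reverse complement, which holds GTCTTCC, had an OVX effect of -0.48 (SE 0.15), and both passed limma's test.

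For stress, 16 members (1.63%) passed the test, 9 higher and 7 lower. Over all probes 4.02% passed (2.24% higher and 1.78% lower), and 4.49% of the region probes read in both tissues did. When 1 array was left out, 3 to 51 members and 226 to 3295 of all 28947 probes passed. Of the members, 13 were higher and 3 lower after quantile normalization, and 1 and 142 after the spike-in shift. Within slide 1, stress against control, 0 members passed limma's test (75 at an unadjusted p under 0.05), and within slide 3, OVX+stress against OVX, 0 did (35). Those with the largest effects were all below 0.5. The neighbour of Slc7a5, the large neutral amino acid transporter, was -3.04 to -1.99 in control, -2.14 to -1.69 in stress, -2.37 to -2.05 in OVX and -2.31 to -1.03 in OVX+stress mice, with a stress effect of 0.46 (SE 0.13). The neighbour of 9530068E07Rik had 0.45 (SE 0.10) and that of Hmbox1 0.21 (SE 0.06). The Wdr59 neighbour fell by 0.48 (SE 0.12) with stress and by 0.62 (SE 0.12) with OVX, with the 2 stress mice of slide 1 again on the control side (slide 1, -3.27 to -2.89; slide 2, -4.09 to -3.70). The Tubb2b neighbour fell by 0.37 (SE 0.08) and the Sod1 neighbour by 0.36 (SE 0.10). The calls of the Slc7a5, Hmbox1 and Sod1 neighbours were lost in 18 or 19 of the 24 fits that left out 1 array. The nearest genes' own stress effects ranged from -0.07 to 0.11 and none of these passed the test.

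For the interaction, 17 members (1.74%) passed, 11 higher and 6 lower, against 4.32% of all probes (3.26% higher and 1.06% lower) and 12.3% of the region probes read in both tissues; normexp gave 7 and 13, and the 75th percentile over tested probes 11 and 3. The count was 0 in 13 of the 24 fits that left out 1 array, 53 without stress replicate 1 and 45 without stress replicate 2. Over all 28947 tested probes, 1 or 2 passed in those 13 fits, 3843 without stress replicate 1 and 3334 without stress replicate 2. The count of members was also 0 after the spike-in shift and 0 with no filter on dim probes, where 0 and 1 of all probes passed. The Ak4 neighbour, chr4:101010948-101032148, completed the 3 largest positive ones with 1.67 (SE 0.47); it was -2.21 to -0.67 on slide 1, -3.84 to -2.28 on slide 2 and -2.87 to -1.37 on slide 3. The negative ones were smaller. The Bcl6 neighbour had -0.75 (SE 0.21), the Hook3 neighbour -0.65 (SE 0.18) and the Zfp800 neighbour -0.56 (SE 0.16). In the last, stress mice (-2.95 to -2.63) lay above control mice (-3.28 to -2.93) with a slight overlap, and the ranges of OVX+stress mice (-3.98 to -3.01) and OVX mice (-3.48 to -2.98) overlapped. The call was lost in 14 to 19 of the 24 fits that left out 1 array for the Chst10, Ywhaq, Ak4, Bcl6, Hook3 and Zfp800 neighbours.

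Of the 48 members beside neural genes, 3 (6.25%) passed the test for OVX, against 11.95% of all members and 30.4% of all tested probes, among them 1 dim Pou3f3 neighbour (-0.36, SE 0.10) and the Scn3a neighbour (0.26, SE 0.09). On slides 1, 2 and 3, that Pou3f3 neighbour had mean log2 values of -3.28, -3.82 and -3.86. The Scn3a neighbour had -4.35, -4.33 and -3.91. One Mef2c neighbour (2.08%) passed for stress, against 4.02% of all tested probes, and 1 Nr2f1 neighbour (2.08%) for the interaction, against 4.32%. The brightest Pou3f3 neighbour had log2 values of 3.58 to 4.06 in control, 3.79 to 4.001 in stress, 3.83 to 3.92 in OVX and 3.87 to 4.18 in OVX+stress mice, with an OVX effect of 0.10 (SE 0.05, adjusted p = 0.094 by limma).

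Calls of the nearest coding gene are given beside the share called over all nearest genes tested. Of the 117 members called for OVX, 104 had a nearest gene in the test, which was called in the same direction for 20, in the opposite direction for 7 and not called for 77. Over the 378 distinct nearest genes tested, 98 (25.9%) were called for OVX. For stress the nearest gene was called in the same direction for 1 of 16 members, and for the interaction for 0 of 17, with 1 in the opposite direction. Of the 378 distinct nearest genes, 17 (4.50%) were called for stress and 12 (3.17%) for the interaction.

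Across the series, each mPFC array had 31582 to 38055 probes well above background and each blood array 23576 to 34838, and no spot was saturated. The labelled tissues were checked with marker genes. All 10 neuronal, 6 astrocyte, 6 oligodendrocyte and 5 microglial markers were well above background on every mPFC array, and the 5 erythroid and 8 lymphocyte markers on every blood array. Marker detection was not exclusive, since 3 of the 10 neuronal, all 6 oligodendrocyte and 4 of the 5 microglial markers were also read on every blood array, and 4 of 5 erythroid and 4 of 8 lymphocyte markers on every mPFC array. Within mPFC, the mean log2 level of the neutrophil markers ranged from -5.52 to -1.68, the highest in OVX+stress mouse 5 with the next mouse at -4.20, and 3 of 7 were read on every array and 2 on none. That of the choroid plexus markers ranged from -5.34 to -2.84, with 1 of 6 read on every array. Their part in the members' values was not tested.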

How the data were processed

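Total RNA from the mPFC and whole blood of the same 24 mice had been labelled and hybridised to 1-colour mouse arrays, 1 array per sample, with 48 arrays in all. Per the file headers, the deposited intensity values came from Feature Extraction 10.7.3.1, which subtracted background and removed spatial trends. The authors' deposited table holds log2 values shifted by each array's 75th percentile. Once each array's median difference was removed, 100.0% of its values lay within 0.001 of those computed here. That check covered the probes with 1 spot on all 48 arrays. Positions are mm9, as the array files give them.

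From the processed intensity, log2 was taken and each array's 75th percentile over non-control probes subtracted. The 28947 probes well above background on all 24 mPFC arrays were tested with limma 3.58.1 (R 4.3.3) in a model of surgery, stress and their interaction, two-sided, with Benjamini-Hochberg adjustment over all of them at 0.05. Different mice are the replicates, and the number of arrays limits the precision. On simulated data with 200 probes changed among 28947, 87.0% were recovered for an OVX effect of 0.5, 86.5% for a stress effect of 0.5 and 83.0% for an interaction of 1. The simulated noise was independent between probes and held no slide differences, and the changed probes were drawn from all tested probes. These shares therefore do not give the recovery among members in this slide layout. The nearest coding gene was the nearest of 26341 probes of coding transcripts, of which 25882 took current symbols from RefSeq (GRCm38, used for names only).

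Members and gene lists were chosen with earlier results of these data known. Named members were, for each effect, the 3 largest in each direction among those called, the 6 regions with most members (ties at 5 members taken by mean mPFC level), the 2 brightest beside each neural list, the 4 with the largest bound over blood, and the genes nearest to them. Other neighbours of neural genes are given to fill out the lists, 1 gene's neighbours are not reported here, and transcripts and letters inside regions or probes were picked after their values were seen. Alternatives changed the background correction, scaling, filter, slide or replicate block, moderation, detection rule or distance, or left out 1 array. Comparisons between slides within 1 group and within slide 2 were added after the data had been seen.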

Additional observations from a re-analysis of the deposited data

Results flagged for a closer look

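In groups of 6, a value that stood apart from the other 5 by Dixon's criterion appeared in 19 of 252 groups (7.54%), where chance gives about 1 in 20. The widest pattern was in the region beside Nectin3, where OVX+stress mouse 6 was the highest of its group at log2 values of -1.29, -1.23 and -1.90 in 3 of the 5 probes. In the same region, OVX mouse 3 was the highest at -0.67 in 1 probe, and control mice 3 and 4 were the highest of their group at -1.65 and -2.26 in 1 probe each. Control mouse 1 was the lowest of its group in both probes of the Htr1b neighbour, at -1.67 and -1.56, and the highest in the brightest Homer1 neighbour, at 2.20.

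The other values that stood apart were single ones. They were -2.92 in OVX mouse 4 for the Zfhx3 neighbour, -4.34 in OVX+stress mouse 6 for the Sod1 neighbour, -2.93 in control mouse 4 for the Zfp800 neighbour and -0.90 in stress mouse 2 for a Pura neighbour. For a Spry2 neighbour OVX+stress mouse 4 had -1.06, for a Galntl6 neighbour OVX+stress mouse 2 had -0.55, and for a Glis2 neighbour control mouse 5 had -3.83. Control mouse 5 had -2.24 for the dimmer Cntn1 neighbour, and stress mouse 1 had 3.65 for the Ttll7 neighbour printed in the report. In blood, 393 members were well above background in OVX mouse 5, against 211 in the next mouse of that group.

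The stress effect differed between OVX and sham mice by the interaction term of limma in 7 of the named members. The difference was 2.18 for the Chst10 neighbour, 1.99 for the Ywhaq neighbour, 1.67 for the Ak4 neighbour and 1.08 for the Xbp1 neighbour, and -0.75, -0.65 and -0.56 for the Bcl6, Hook3 and Zfp800 neighbours. With slide as a block, 0 members passed the interaction test of limma (41 at an unadjusted p under 0.05).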

How the results depend on the processing

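Counted on no blood array in place of at most 12, the members were 301, and with 10 kb in place of 100 kb 12 regions lay beside a neural gene. With slide as a block, 0 members passed limma's test for OVX, stress and the interaction, against 117, 16 and 17. The Las1l neighbour's OVX effect then turned to -0.11 and the Ywhaq neighbour's to 0.016. For stress, 0 members passed within slide 1 and 0 within slide 3, and 0 of all 28947 probes in either. After the spike-in shift the counts were 216 for OVX, 143 for stress and 0 for the interaction, and with no filter on dim probes 73, 0 and 0. Without moderation, 4 members passed for the interaction. The replicate block gave 120 members for OVX, 21 for stress and 3 for the interaction. The numbers share nothing in the labels but the number. Of the same-number correlations, 15 of 36 exceeded 0.1 (median 0.038), against 36 of 180 between other numbers (median -0.002). Of the 24 arrays, 7 correlated best with their own number.

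Leaving out 1 array at a time gave 95 (without stress replicate 1) to 128 members (without OVX+stress replicate 6) for OVX. For stress it gave 3 (without stress replicate 5) to 51 (without stress replicate 2), and also 41 without stress replicate 1, the other stress mouse of slide 1. In 13 of the 24 fits the count fell by over 1.5 times. For the interaction it gave 0 to 53 (without stress replicate 1), and 45 without stress replicate 2. The count was 0 without control replicates 1, 5 or 6, stress replicates 3, 4, 5 or 6, OVX replicates 1, 2, 3 or 4, or OVX+stress replicates 1 or 3. Over all 28947 tested probes, leaving out 1 array gave 7661 to 9486 calls for OVX, 226 to 3295 for stress and 1 to 3843 for the interaction. No named OVX call was lost in these fits. The named stress calls were lost in 0 to 19 of the 24 fits and those of the 3 largest interactions in each direction in 14 to 19. The causes were not tested. The members' OVX effects had a median standard error of 0.086, against 0.060 over all tested probes. It was 0.084 over the region probes read in both tissues. The part of dim signal in these results was not tested.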
